A study of Mus musculus with 12 samples.

Results

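Cells read ATP and NAD that leave damaged neighbours through a small set of surface receptors and enzymes, and 8 genes of that set were described across liver and thymic iNKT1 cells with and without Ets1: P2rx7, P2rx4, Art2b, Cd38, Entpd1, Nt5e, Adora2a and Ada. They were chosen by name because P2rx7 was far higher in liver and Cd38 was lower in Ets1-deleted thymic cells. All 8 were among the 14004 genes of the deposited table. The tissue contrasts and the thymic genotype contrast therefore picked the genes, and their values there are given as a description, with no test. Only the genotype contrast in liver was tested for the 8 genes.

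RNA-seq was made from invariant natural killer T cells of type 1 (iNKT1), T cells that recognise lipids on CD1d and depend on the transcription factor T-bet, which Tbx21 encodes. Cells that bound CD1d tetramer and carried YFP were sorted as 4 groups of 3 libraries, 12 in all. The cKO liver and cKO thymus groups had the genotype Tbx21Cre, Rosa26-YFP+ and Ets1F/F, and the control liver and control thymus groups had Tbx21Cre and Rosa26-YFP+ without the floxed Ets1 alleles. Cre and the YFP reporter were thus shared by all groups, and Cre under Tbx21 acts only in cells that have switched Tbx21 on. The libraries were called independent replicates, but the sources used here give neither the age of the mice nor whether each library came from its own mouse, so p-values measure the spread between these libraries, which may be technical.

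ATP outside a cell opens the P2X channels. P2X7, encoded by P2rx7, needs high ATP, and in mouse T cells it is also opened by NAD, which the surface enzyme encoded by Art2b uses to attach ADP-ribose to the receptor. This NAD route can shed surface proteins and kill T cells of mouse liver and other tissues. CD38 degrades NAD, CD39 (Entpd1) cuts ATP to AMP, CD73 (Nt5e) cuts AMP to adenosine, the receptor encoded by Adora2a dampens T cells when it binds adenosine, and adenosine deaminase (Ada) removes adenosine.

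The 250 bases before the RefSeq start sites (GRCm38.p6) are shown for 2 pairs of genes whose libraries lay on the same side of their controls. P2rx7 and P2rx4 were both higher in cKO thymus, and Art2b and Cd38 both lower in cKO liver. Nt5e was also higher in cKO thymus, but its window is not shown. Adora2a was also lower in cKO liver, but no promoter was found for it. Capitals mark GGAA, the core letters of ETS family sites, on either strand (TTCC where it lies on the other strand).
P2rx7, start site 1, chr5:122643677-122643926, plus strand: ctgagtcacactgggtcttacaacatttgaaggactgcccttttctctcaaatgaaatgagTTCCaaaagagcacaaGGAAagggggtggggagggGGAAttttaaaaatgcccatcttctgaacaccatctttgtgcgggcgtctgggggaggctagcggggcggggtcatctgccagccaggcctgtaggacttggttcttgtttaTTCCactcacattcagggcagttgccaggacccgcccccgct
P2rx7, start site 2, chr5:122650133-122650382, plus strand: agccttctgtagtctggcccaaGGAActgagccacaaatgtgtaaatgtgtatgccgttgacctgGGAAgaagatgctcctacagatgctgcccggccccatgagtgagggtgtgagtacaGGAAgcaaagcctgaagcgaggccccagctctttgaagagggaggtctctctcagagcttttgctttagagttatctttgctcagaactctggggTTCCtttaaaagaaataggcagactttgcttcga
P2rx4, chr5:122707294-122707543, plus strand: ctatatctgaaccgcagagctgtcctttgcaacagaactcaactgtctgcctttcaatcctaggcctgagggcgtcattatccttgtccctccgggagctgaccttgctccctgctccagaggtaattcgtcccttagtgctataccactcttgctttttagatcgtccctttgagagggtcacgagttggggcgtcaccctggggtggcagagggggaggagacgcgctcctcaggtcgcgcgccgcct
Art2b, chr7:101581162-101581411, minus strand: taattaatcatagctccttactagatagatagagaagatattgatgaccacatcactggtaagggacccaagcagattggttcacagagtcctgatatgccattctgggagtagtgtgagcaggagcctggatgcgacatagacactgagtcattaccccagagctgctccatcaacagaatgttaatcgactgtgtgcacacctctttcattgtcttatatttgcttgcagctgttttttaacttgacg
Cd38, chr5:43868559-43868808, plus strand: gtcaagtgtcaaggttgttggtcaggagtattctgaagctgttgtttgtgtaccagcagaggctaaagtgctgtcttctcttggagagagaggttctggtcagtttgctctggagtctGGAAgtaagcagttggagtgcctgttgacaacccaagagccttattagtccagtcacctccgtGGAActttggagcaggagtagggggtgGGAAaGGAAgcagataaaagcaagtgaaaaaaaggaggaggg

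RefSeq promoters were found for 7 of the 8 genes, with 9 start sites. GGAA occurred 4 times before each start of P2rx7 and 4 times before Cd38, and was not among the letters of the P2rx4 and Art2b windows. The Art2b window lies inside the GENCODE span of the gene (101576970 to 101585600, minus strand). So do the windows of Cd38 (span 43868553 to 43912375, plus strand) and Nt5e (span 88327197 to 88372092, plus strand). For these genes, bases before the upstream end of the span were not searched. The windows of start site 2 of P2rx7 and of Entpd1 also lie inside their genes. Before Entpd1 it occurred 4 and 7 times at the 2 start sites, before Nt5e 3 times and before Ada 7 times. Of 32817 mouse promoters of this length 93.4% held GGAA, with a median of 3 matches. A longer letter run that contains the core, GGAAGT, lay before Cd38 at -132 to -127 from the start and in 19.7% of all promoters. CCGGAAGT, which contains both, was before none of the 9 starts and in 2.88% of all promoters. GGTGTGA, letters bound by T-box factors, was found once, before start site 2 of P2rx7 at -141 to -135, and in 3.33% of all promoters. It overlapped none of the ETS matches. A match is a stretch of letters and was not tested as a binding site.

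Values are the authors' read counts adjusted for library size, called adjusted counts. Reads recovered from them came to 3.21 M reads in cKO liver library 2 and 3.87 M in control liver library 3, and to 18.5 M to 43.4 M in the other 10. One read was worth 0.6149 to 6.662 adjusted counts. The 3 control thymus libraries were unlike each other. Libraries 1 and 2 had 3528 and 2824 genes at 0 reads, against 1782 in library 3 and at most 2223 in the other groups. Mitochondrial ribosomal RNA was 30% and 34.2% of all values in libraries 1 and 2 and 24.2% in library 3. It ran from 23.2% to 33.1% in liver. Leaving out library 3 raised the number of all genes called between genotypes in thymus from 83 to 541. Which of the 3 is unusual was not tested. The targeted gene Ets1 had 3590, 4430 and 5790 adjusted counts in cKO liver against 18800, 18500 and 15900 in control liver, and 11800, 7070 and 5790 in cKO thymus against 23700, 28100 and 19500 in control thymus, so every cKO library lay below its controls and transcript remained in all of them. The 10 iNKT1 identity genes, such as Cd3e, Tbx21 and Cxcr3, summed to between 109000 and 190000 in every library. Single genes of the list still differed between genotypes. In liver Tbx21 had 4270 to 6320 in cKO against 2320 to 3510 in control. Cxcr3 went the other way there, with 3830 to 5580 against 7180 to 8500. Fold changes below are limma estimates on log2(adjusted count + 1) ± SE, from 1 model of all 12 libraries, and ± after a group mean is the SD of 3 libraries. A lower level in such bulk samples can mean fewer expressing cells or less RNA per cell, which cannot be told apart here.

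**Figure D1:**
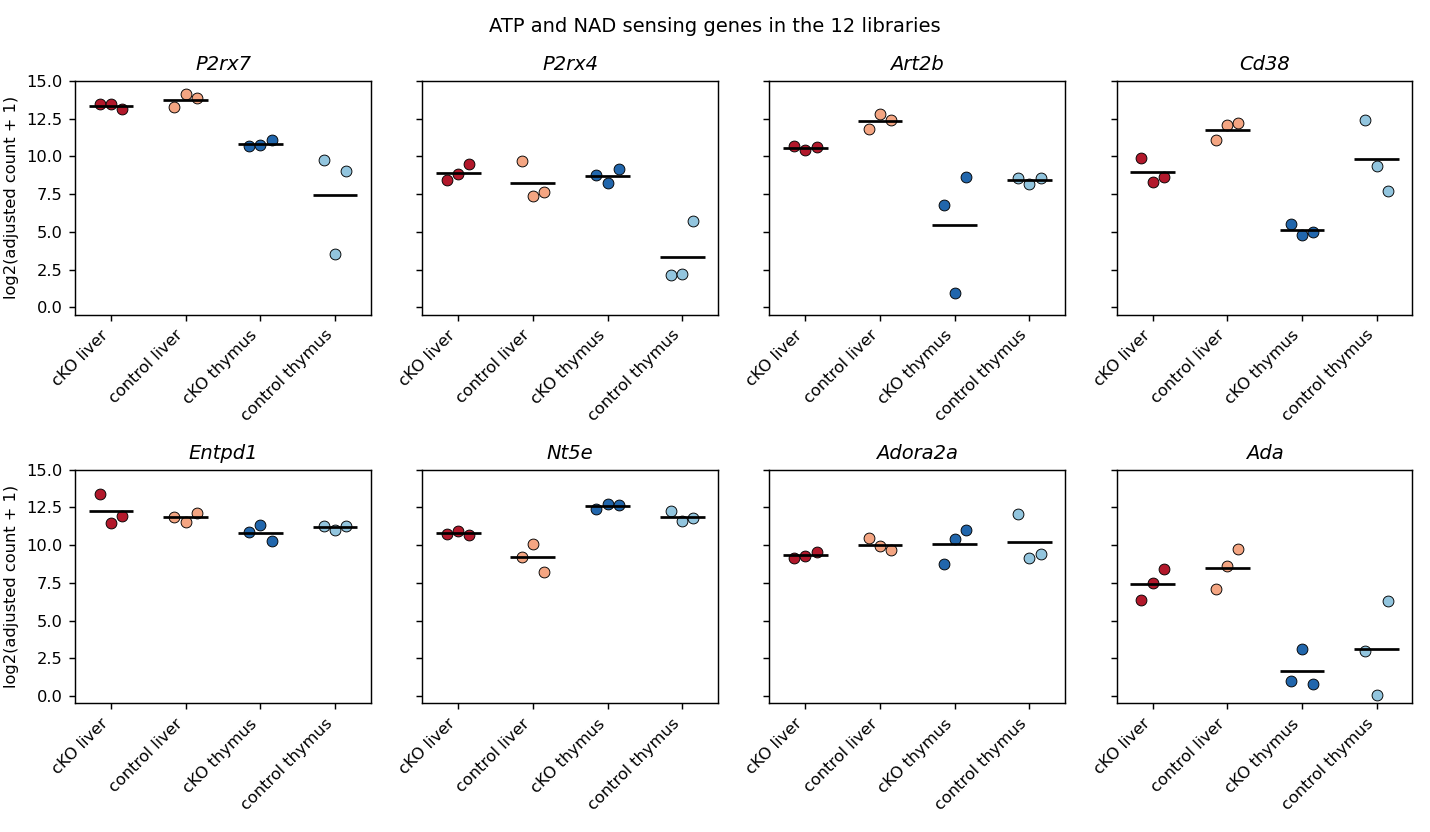
Adjusted counts of the 8 genes in each library, as log2(adjusted count + 1) on the vertical axis; points are libraries 1 to 3 from left to right, black bars are means of the plotted log2 values, n = 3 per group. P2rx7 sits highest in both liver groups, Cd38 is lowest in cKO thymus, and 1 library sets much of the spread of P2rx7 in control thymus and of Art2b in cKO thymus.

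P2rx7 was the most strongly expressed of the 8 genes per exon length in both liver groups. It lies on chromosome 5 (122643911 to 122691432, plus strand, GRCm38; ENSMUSG00000029468). The adjusted counts were 11640, 11300 and 9001 in cKO liver, 9921, 18360 and 15110 in control liver, 1642, 1732 and 2191 in cKO thymus, and 881.2, 10.44 and 514 in control thymus. The 2 liver groups overlapped, every liver library lay above every thymic one, and cKO thymus lay wholly above control thymus. Control thymus library 2 held only 9 reads of the gene, against 786 and 410 in the other two.

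The liver mean of P2rx7 was 5.74 times the thymic mean in cKO cells (10650 ± 1440 against 1855 ± 295; log2 fold change 2.52 ± 0.98). In control cells the ratio was 30.9 (14460 ± 4250 against 468.5 ± 437; log2 fold change 6.34 ± 0.98). These are the values that chose the gene. Without control thymus library 2 the log2 fold change between tissues in control cells was 4.38. The same library bears on the genotype contrast in thymus, where the log2 fold change of cKO over control was 3.41 ± 0.98 with it and 1.45 without it. In liver the genotype difference of P2rx7 was -0.41 ± 0.98 on the log2 scale and did not pass the test (limma adjusted p = 1).

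P2rx4, the neighbouring gene, begins 16.1 kb beyond the end of P2rx7 on the same strand (chromosome 5, 122707544 to 122729738) and encodes a P2X channel that opens at lower ATP than P2X7. It had 341.8, 446.7 and 711.3 adjusted counts in cKO liver, 823.9, 162.2 and 200.9 in control liver, 431.1, 299 and 582.9 in cKO thymus, and 3.386, 3.498 and 52.71 in control thymus. The 3 other groups overlapped each other, and control thymus lay below all of them. Its control thymus values rested on 3, 3 and 42 reads.

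The log2 fold change of P2rx4 in thymus, cKO over control, was 5.37 ± 1.23. It was 2.98 without control thymus libraries 1 and 2, that is against library 3 alone. Between tissues it was 0.18 ± 1.23 in cKO cells and 4.88 ± 1.23 in control cells, the second being 2.49 against control thymus library 3 alone. The value in cKO cells was -0.11 without cKO liver library 3. In liver the genotype difference was 0.67 ± 1.23 (limma adjusted p = 1). In cKO thymus both P2X genes lay above their controls, while P2rx7 alone also separated liver from thymus in cKO cells. No 50-base window of the transcripts is shared between the 2 genes, so their reads can be told apart at that length.

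Macrophages also carry both P2X receptors. Of 12 macrophage and Kupffer cell markers 7 were in the table, and they summed to 254 to 545 in cKO liver, 66.2 to 1190 in control liver, 114 to 328 in cKO thymus and 0.187 to 279 in control thymus. The complement genes C1qb and C1qc were at 0 reads in both thymic groups, as was Adgre1, which encodes the macrophage marker F4/80. Cd68 reached 328 adjusted counts in cKO thymus and 279 in control thymus, and Csf1r reached 114 in cKO thymus and 12.6 in control thymus. Dendritic cell markers (3 of 6 in the table: Itgax, Zbtb46 and Xcr1) summed to 2280 to 6210 in cKO thymus and 159 to 893 in control thymus, and to 1550 to 2850 in cKO liver and 427 to 1760 in control liver. Of these 3 genes only Itgax kept the genotypes apart. It had 2190 to 6030 in cKO thymus against 0.0213 to 444 in control thymus. In liver it had 920 to 2130 in cKO against 0.833 to 299 in control. Zbtb46 and Xcr1 overlapped between genotypes in both tissues. In thymus Zbtb46 had 6.16 to 1120 in cKO against 0.0274 to 270, and Xcr1 5.59 to 323 against 0.0212 to 179. The part of the macrophage and dendritic cell markers in the P2rx4 and P2rx7 values was not tested.

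Art2b (chromosome 7, 101576970 to 101585600, minus strand; ENSMUSG00000030651) was higher in liver than in thymus in both genotypes and lower in cKO than in control liver libraries. It had 1642, 1354 and 1607 adjusted counts in cKO liver, 3529, 7180 and 5359 in control liver, 110.9, 0.9229 and 393.4 in cKO thymus, and 377.8, 283.3 and 376.1 in control thymus. All liver libraries lay above all thymic ones, and the 2 liver groups did not overlap. The thymic groups overlapped, since cKO thymus library 2 held 1 read of the gene and library 3 lay above all controls.

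In liver the mean of Art2b was 1534 ± 157 in cKO cells and 5356 ± 1830 in control cells. The log2 fold change of -1.75 ± 1.23 did not pass the test (limma adjusted p = 0.96, unadjusted p = 0.17). The estimate of its spread was shared with the thymic groups. Fitted to the 6 liver libraries alone, the same log2 fold change had a limma adjusted p of 0.0057, in a fit that called 292 of all genes. It passed in this 1 alternative of 26, and across all of them the adjusted p ran between 0.0057 and 1. On recovered reads it was 0.82 in edgeR and 0.52 in DESeq2. Between tissues the log2 fold change was 5.12 ± 1.23 in cKO cells (2.86 without cKO thymus library 2) and 3.90 ± 1.23 in control cells. In thymus it was -2.97 ± 1.23, and -0.71 without that library.

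Art2a-ps, the close copy next to Art2b on chromosome 7 (101552453 to 101560865, minus strand), is annotated as a polymorphic pseudogene, a gene intact in some mouse strains only, of the other Art2 enzyme. It came from a list drawn up with results of these data known and shares sequence with Art2b, so its tissue test below is not free of that choice. It had 2780, 1100 and 1990 adjusted counts in cKO liver and 58.5, 47.6 and 67.7 in cKO thymus, and 4520, 4770 and 5380 in control liver against 473, 510 and 70.2 in control thymus. Liver and thymus did not overlap in either genotype. The transcript rose in liver relative to thymus by 4.97 ± 0.75 in cKO cells and 4.24 ± 0.75 in control cells on the log2 scale (limma adjusted p = 0.0082 and 0.0088).

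In liver Art2a-ps averaged 1955 ± 839 in cKO cells and 4889 ± 441 in control cells, again without overlap, and did not pass the genotype test (log2 fold change -1.42 ± 0.75, limma adjusted p = 0.8). Of the 50-base windows of Art2b transcripts 5.02% also occur in Art2a-ps, as do 11.8% of the windows of Art2a-ps in Art2b. Since the sources used here do not say how reads shared by both were counted, their split is uncertain. The tissue calls of Art2a-ps were lost in control cells without control liver library 1, 2 or 3 (limma adjusted p = 0.057, 0.083 and 0.084) and in cKO cells without cKO liver library 1 or 3 (0.06 and 0.073). Without the 2 shallow liver libraries they were lost in both genotypes (0.073 in cKO cells and 0.15 in control cells).

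Cd38 (chromosome 5, 43868553 to 43912375, plus strand; ENSMUSG00000029084) was lower in cKO than in control libraries of both tissues. It had 945.6, 321.2 and 390 adjusted counts in cKO liver, 2129, 4283 and 4673 in control liver, 44.15, 27.09 and 30.16 in cKO thymus, and 5464, 667.3 and 210.6 in control thymus. In each tissue every cKO library lay below every control library. The control thymus libraries were uneven, with library 1 far above the other two, whereas the cKO thymus libraries lay close together on 43, 29 and 41 reads.

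The thymic values are those that chose the gene, with a log2 fold change of -4.75 ± 0.95. It was -3.46 without control thymus library 1 and -2.64 without libraries 1 and 2, that is against control thymus library 3 alone. The liver values were not used in that choice. There the mean was 552.2 ± 342 in cKO cells and 3695 ± 1370 in control cells, a ratio of control to cKO means of 6.69. The log2 fold change of -2.83 ± 0.95 had an unadjusted p of 0.0077 and did not pass after adjustment over all 13058 genes tested (limma adjusted p = 0.3). The direction was the same in all 26 alternatives, with log2 fold changes between -3.30 and -2.31 and adjusted p between 0.00083 and 1. The difference passed in the fit to the liver libraries alone (limma adjusted p = 0.0036) and with a weight for each library (limma adjusted p = 0.00083). It also passed with DESeq2 on recovered reads (adjusted p = 0.035). The fit that kept only control thymus library 3 in its group is not counted here.

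Between tissues, Cd38 was higher in liver than in thymus by 3.85 ± 0.95 on the log2 scale in cKO cells and by 1.93 ± 0.95 in control cells. In control cells the 2 tissues overlapped because of control thymus library 1, and the log2 fold change was 4.04 against control thymus library 3 alone. The gene shares its locus with the predicted transcript Gm16014, which had 0 to 3.42 adjusted counts in cKO liver, 0 to 35.4 in control liver and 0 reads in thymus. B cells and endothelium can also express CD38. The 4 B cell markers in the table (of 6) summed to 3.8 to 98.9 in cKO liver and 1.69 to 747 in control liver, and to 0 to 163 in cKO thymus and 0.0843 to 0.176 in control thymus, where all 4 were at 0 reads. Pecam1, the 1 endothelial marker of 8 in the table, had 1.16 to 88 adjusted counts in cKO liver against 458 to 671 in control liver, and 0.923 to 68.5 in cKO thymus against 71.7 to 302 in control thymus. It was thus lower in the same groups as Cd38, and its part in the Cd38 values was not tested.

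**Figure D2:**
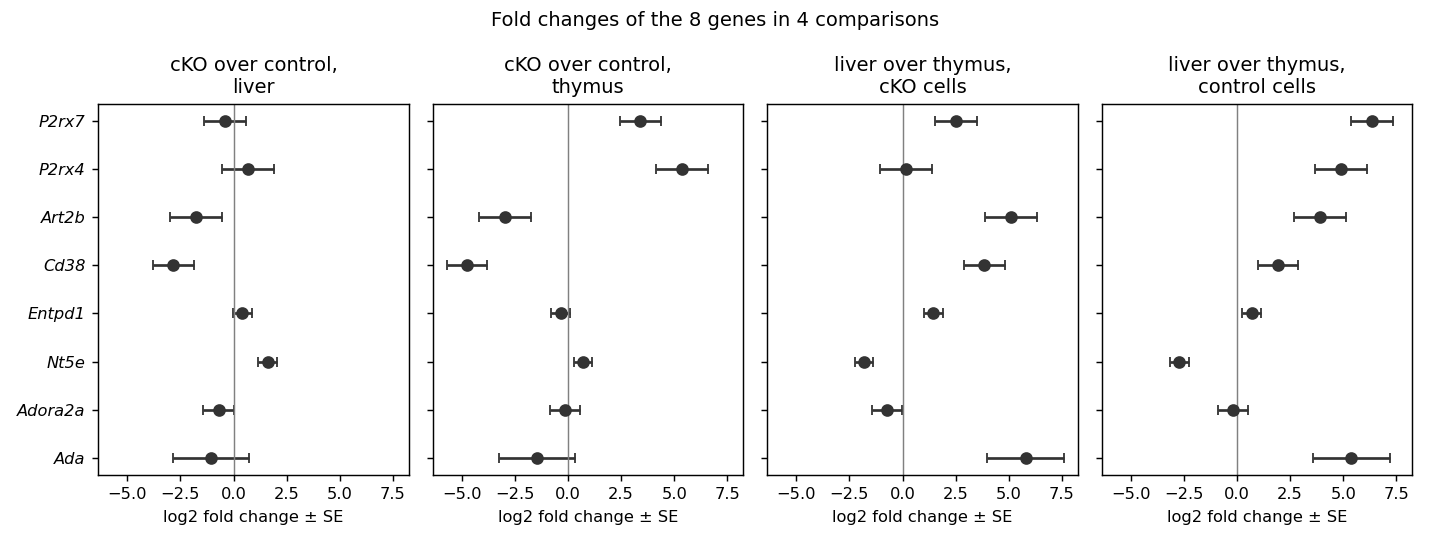
Fold changes of the 8 genes as log2 fold change ± SE (limma, n = 3 libraries per group), for cKO over control in liver and thymus and for liver over thymus in cKO and control cells. Cd38 lies at -2.83 and -4.75 in the 2 genotype panels and Nt5e at 1.60 and 0.70, while P2rx7 and P2rx4 lie at 3.41 and 5.37 in thymus against -0.41 and 0.67 in liver.

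Entpd1 and Nt5e encode CD39 and CD73, which act in turn on ATP and AMP. Entpd1 (chromosome 19, 40612366 to 40741602, plus strand) had 10840, 2839 and 3963 adjusted counts in cKO liver, 3749, 3006 and 4590 in control liver, 1867, 2626 and 1228 in cKO thymus, and 2428, 2029 and 2521 in control thymus. The genotypes overlapped in both tissues, and every liver library lay above every thymic library. The high mean of cKO liver came from library 1.

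The genotype difference of Entpd1 in liver was 0.41 ± 0.44 on the log2 scale (limma adjusted p = 1), and -0.15 without cKO liver library 1. In thymus the difference was -0.35 ± 0.44. Liver exceeded thymus by 1.45 ± 0.44 in cKO cells and by 0.69 ± 0.44 in control cells on the same scale.

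Nt5e (chromosome 9, 88327197 to 88372092, plus strand; ENSMUSG00000032420) ran the other way, with its highest levels in thymus. It had 1730, 1926 and 1654 adjusted counts in cKO liver, 604.6, 1076 and 304 in control liver, 5279, 6898 and 6491 in cKO thymus, and 4946, 3078 and 3641 in control thymus. The 4 groups fell in the order cKO thymus, control thymus, cKO liver and control liver, and no group overlapped its neighbour in that order. It was the 1 gene of the 8 for which this was so.

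In liver the mean of Nt5e was 1770 ± 141 in cKO cells and 661.6 ± 389 in control cells, 2.68 times as high. The log2 fold change of 1.60 ± 0.43 had an unadjusted p of 0.0016 and did not pass after adjustment (limma adjusted p = 0.12). Over the 26 alternatives it lay between 1.07 and 2.04, with adjusted p between 0.016 and 0.9. The difference passed in 2 of them, with a weight for each library (limma adjusted p = 0.016) and with DESeq2 on recovered reads (0.033). In thymus the log2 fold change was 0.70 ± 0.43, and between tissues it was -1.81 ± 0.43 in cKO cells and -2.71 ± 0.43 in control cells.

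The balance of the 2 enzymes separated the tissues. Per kb of exon, the level of Nt5e divided by that of Entpd1 was 0.104, 0.44 and 0.27 in cKO liver, 0.105, 0.232 and 0.0429 in control liver, 1.83, 1.7 and 3.43 in cKO thymus, and 1.32, 0.984 and 0.936 in control thymus. Every liver library lay below every thymic library, and in thymus all cKO libraries lay above all control libraries. In liver the genotypes overlapped. These ratios are a description, since both tissue contrasts were used to choose the genes.

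Adora2a, which encodes the main adenosine receptor of T cells (chromosome 10, 75316877 to 75334784, plus strand), had 561.9, 634.1 and 731.9 adjusted counts in cKO liver, 1388, 989.5 and 818.5 in control liver, 427, 1376 and 2076 in cKO thymus, and 4197, 575.9 and 695.7 in control thymus. The liver groups did not overlap, with cKO below control, while each thymic group spread over several fold and the 2 overlapped. In liver the genotype difference on the log2 scale, -0.70 ± 0.72, did not pass (limma adjusted p = 1). The log2 fold change was -0.15 ± 0.72 between genotypes in thymus, -0.74 ± 0.72 between tissues in cKO cells and -0.19 ± 0.72 between tissues in control cells. Without control thymus library 1 the thymic genotype value was 0.75 and the tissue value in control cells 0.72, so neither has a settled direction.

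Ada (chromosome 2, 163726584 to 163750239, minus strand) had few reads in thymus. It had 79.23, 180.7 and 338.4 adjusted counts in cKO liver, 133.9, 393.1 and 837.2 in control liver, 1.031, 7.462 and 0.6893 in cKO thymus, and 6.751, 0.0274 and 76.52 in control thymus. The thymic values rested on 1, 8 and 1 reads in cKO and on 6, 0 and 61 reads in control libraries, and every liver library lay above every thymic one. The gene passed the filter on low values through its liver libraries. With so few thymic reads it could be tested only if liver was higher, so the direction of its tissue difference was built in. Its log2 fold changes were 5.79 ± 1.80 between tissues in cKO cells, 5.38 ± 1.80 between tissues in control cells, -1.47 ± 1.80 between genotypes in thymus and -1.06 ± 1.80 in liver (limma adjusted p = 1). Without control thymus libraries 1 and 2 the thymic genotype value was -4.66 and the tissue value in control cells 2.19.

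All 8 genes passed the filter of at least 10 adjusted counts in at least 3 libraries. In the liver genotype contrast, which did not choose them, none passed the limma test after adjustment, against 0.505% of all genes tested. An unadjusted p under 0.05 was found for 2 (Cd38 and Nt5e), against 6.92% of all genes. On recovered reads edgeR called 0 of the 8 (39 of all genes) and DESeq2 called 2 (266 of all genes). Libraries did not overlap for Nt5e on the higher side, against 9.99% of all genes, and for Art2b, Cd38 and Adora2a on the lower side, against 8.66%. The median log2 fold change of the 8 was -0.55, against 0.02 over all genes tested.

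In the other contrasts the same counts describe how the genes were picked and nothing is read from them. In thymus cKO libraries lay above control libraries without overlap for P2rx7, P2rx4 and Nt5e (7.6% of all genes) and below for Cd38 (6.89%). The median there was -0.25, against 0.24 over all genes, and the second value was 0 after TMM rescaling. In cKO cells, liver lay above thymus for P2rx7, Art2b, Cd38, Entpd1 and Ada (8.81% of all genes) and below for Nt5e (7.26%). In control cells, liver lay above thymus for P2rx7, P2rx4, Art2b, Entpd1 and Ada (9.55%) and below for Nt5e (5.83%). The medians between tissues were 1.98 in cKO cells and 2.92 in control cells, against 0.09 and 0.28 over all genes. The contrasts share libraries pairwise, so they are not independent of each other.

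Read per exon length, the 8 genes ranked differently in the 2 tissues. In cKO liver P2rx7 (1780 adjusted counts per kb) stood above Entpd1 (1050), Art2b (542), Adora2a (210), Nt5e (206), Cd38 (142), Ada (99.6) and P2rx4 (71.2). In control liver P2rx7 (2420) was followed by Art2b (1890), Cd38 (950), Entpd1 (678), Adora2a (348), Ada (227), Nt5e (76.9) and P2rx4 (56.3). In thymus P2rx7 ranked far lower.

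The highest level per kb in cKO thymus was that of Nt5e (723), above Adora2a (422), Entpd1 (342), P2rx7 (311), P2rx4 (62.3), Art2b (59.5), Cd38 (8.69) and Ada (1.53). In control thymus Adora2a (595) and Cd38 (543), each with 1 library far above the other two, were followed by Nt5e (452), Entpd1 (417), Art2b (122), P2rx7 (78.5), Ada (13.9) and P2rx4 (2.83). The receptor and the ribosyltransferase thus led in control liver, and Nt5e led in cKO thymus. The rank of Adora2a in cKO thymus came from library 3. Its levels per kb were 139, 449 and 678, below those of Entpd1 (335, 471 and 220) in libraries 1 and 2.

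**Figure D3:**
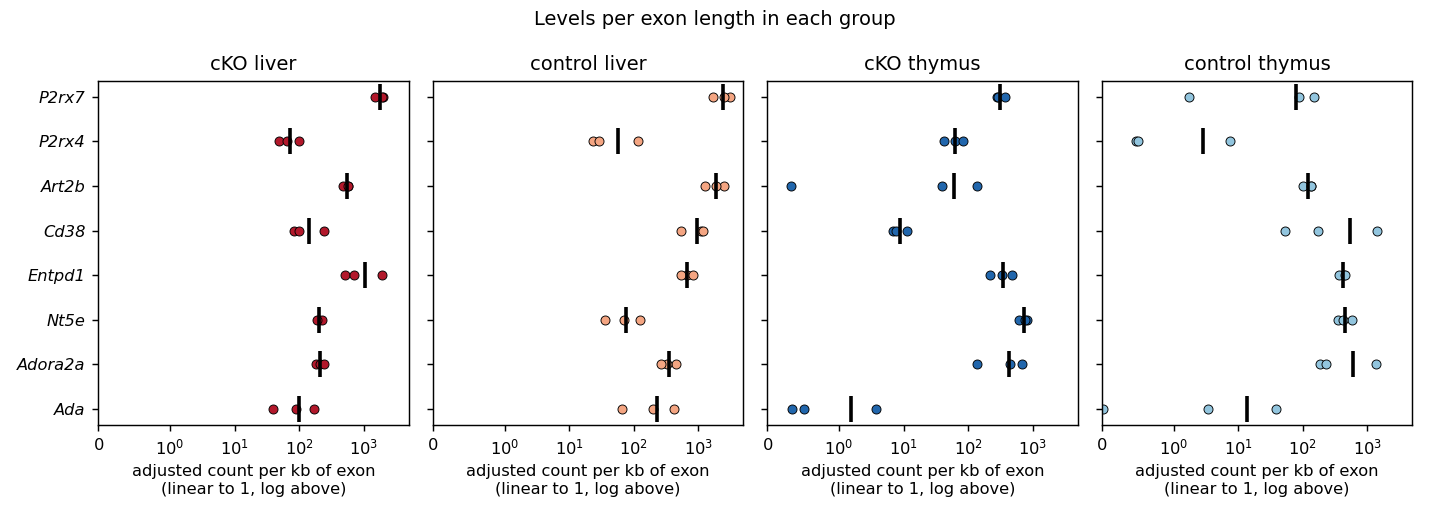
Levels of the 8 genes per exon length in each group, as adjusted counts per kb of exon on an axis that is linear up to 1 and logarithmic above; points are libraries and black bars are means of 3. P2rx7 is furthest right in both liver panels (means of 1780 and 2420), and Nt5e is furthest right in cKO thymus (723).

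Other genes of the same pathways were taken from 5 lists of 62 genes, of which 36 were in the table and 32 passed the filter. Between genotypes none passed the limma test in liver or in thymus (0.505% and 0.636% of all genes were called). In liver 3 had an unadjusted limma p under 0.05, against 6.92% of all genes. Recovered reads there gave 0 calls in edgeR (39 of all genes) and 0 in DESeq2 (266 of all genes). In thymus 4 had an unadjusted limma p under 0.05, against 13.2% of all genes. Recovered reads there gave 0 calls in edgeR (54 of all genes) and 2 in DESeq2 (581 of all genes). Between tissues limma called 1 gene in cKO cells, Art2a-ps (0.222% of all genes were called there). In the same contrast edgeR called 1 (16 of all genes) and DESeq2 called 2 (245 of all genes). In control cells limma called 2, Art2a-ps and Casp1 (0.605% of all genes). There edgeR and DESeq2 each called 2 (47 and 459 of all genes). Casp1 passed the filter on low values through its liver libraries alone, so its place among these calls is built in and supports nothing. The lists were drawn up with results of these data known. The median log2 fold changes of the 32 genes were -0.03 between genotypes in liver, 0.35 between genotypes in thymus, and 0.03 between tissues in each genotype. The difference between the genotype effects of the 2 tissues passed for none of them (lowest limma adjusted p = 0.91).

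By role, the other nucleotide receptors (13 genes, 2 tested) and the genes of adenosine reception, transport and clearance (12 genes, 6 tested) had no call in any contrast. Neither did NAD synthesis and salvage (10 genes, 10 tested). The other ectoenzymes of ATP and NAD (15 genes, 4 tested) held Art2a-ps. The genes of ATP release and of steps downstream of P2X7 (12 genes, 10 tested) held Casp1, which encodes the inflammasome protease that matures interleukin 1β.

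Casp1 had 36.2, 114 and 96.4 adjusted counts in cKO liver, 684, 501 and 343 in control liver, and 1, 0 and 1 reads in cKO thymus, and was at 0 reads in all 3 control thymus libraries. Liver and thymus did not overlap in either genotype. In control cells it was at least 144-fold higher in liver than in thymus, against a floor of 3 reads per library. In cKO cells the ratio of read shares was 105 (exact 95% interval 28.8 to 877, counting error only). Since the gene was tested only because of its liver values, a higher level in liver was built in. These differences are given as a description, with no test. Macrophages express Casp1 too, and the part of the macrophage markers in this difference was not tested.

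**Figure D4:**
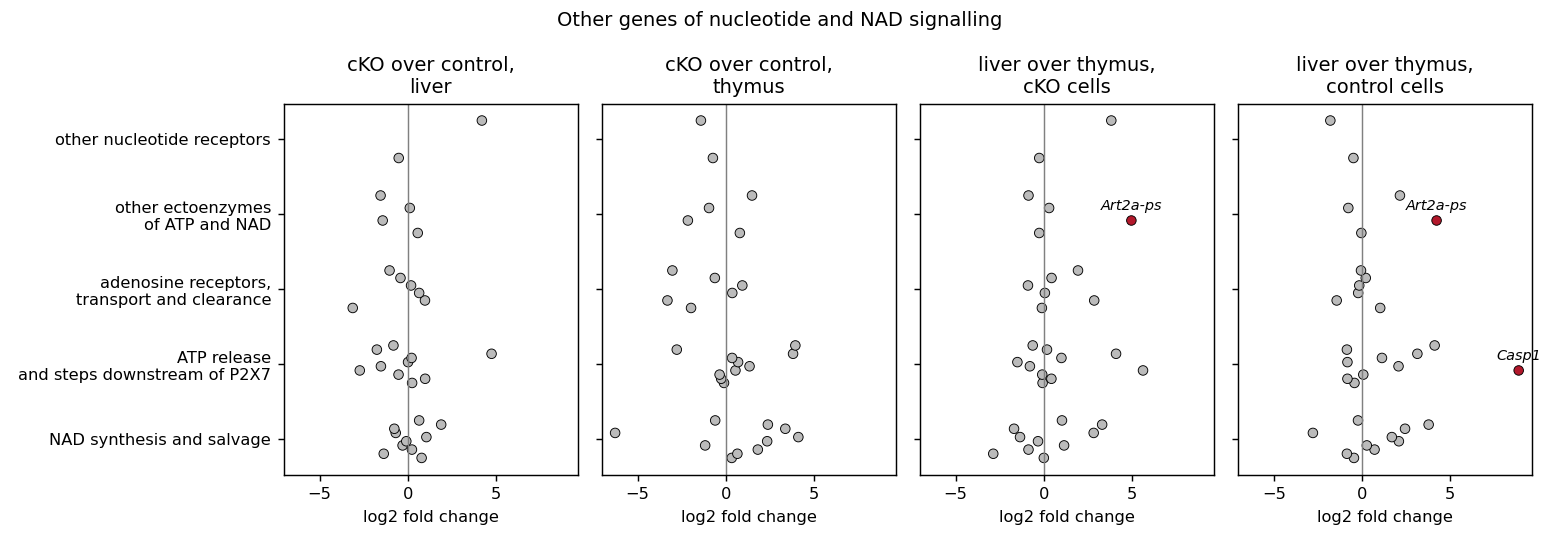
Log2 fold changes (limma, n = 3 libraries per group) of the 32 tested genes of the 5 lists, 1 point per gene and 1 row per list, for cKO over control in each tissue and liver over thymus in each genotype. Red points passed an adjusted p of 0.05: Art2a-ps in both tissue panels (4.97 and 4.24) and Casp1 in control cells, which passed the filter on low values through its liver libraries alone; grey points did not.

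Bst1, which encodes a relative of CD38 and lies upstream of Cd38 on chromosome 5 (43818885 to 43843986), was picked after its values were seen: it was at 0 reads in all 12 libraries, which allows up to 3 reads in each by counting error. Cd38 was thus the 1 gene of this pair with reads.

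Among the genes whose pattern was most like that of P2rx7, by Pearson's r over the 12 libraries on log2(adjusted count + 1) among named genes whose highest group mean was 50 or more, were Papss1 (0.981), Lgals9 (0.936), which encodes galectin 9, the activating receptor gene Cd226 (0.935) and Gar1 (0.935). Lgals9 averaged 4962 adjusted counts in cKO liver, 5592 in control liver, 2760 in cKO thymus and 2450 in control thymus. Its 4 group means fell in the same order as those of P2rx7. Most like Cd38 were Cmya5 (0.932), Cnp (0.931), Slc44a2 (0.92), Podnl1 (0.896) and Sp1 (0.892). Podnl1 averaged 755.3 in cKO liver, 3206 in control liver, 244.1 in cKO thymus and 3469 in control thymus. The 12 points share their tissues, genotypes and library depths, so these r values are a description and say nothing about shared control.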

How the data were processed

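RNA-seq libraries were made from total RNA with an ultra-low-input kit, per the labels' protocols. Tools listed without roles in the submitters' processing notes are HTSeq 0.6.1, STAR, TopHat2 2.1.0, Trimmomatic 0.33 and DESeq2, with the build mm10. The sources used here do not say whether counting used strand. The authors deposited 1 table of a signal per gene, read counts adjusted for library size, for 14004 Ensembl genes. Whole reads were recovered from it by inverting a negative binomial quantile adjustment (fitted dispersion 1.43), an adjustment inferred from the values. Then 94.5% of values lay within 0.1 of a whole read (80.4% to 98.9% per library). Recovered reads served for depths, low values and the alternatives in edgeR 4.0.16 and DESeq2 1.42.0.

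Symbols and positions came from GENCODE on GRCm38, matched for 95.4% of identifiers. Genes with at least 10 in at least 3 libraries (13058; 946 were left out) entered limma 3.58.1 (R 4.3.3), fitted to log2(value + 1) with 4 group means and a variance trend. P-values were two-sided and adjusted over all genes (Benjamini-Hochberg, 0.05). The members and lists were chosen with earlier results of these data known. The text names the 8 members, Ets1, called genes of the lists and the 5 genes most like P2rx7 and Cd38; 1 gene that the rule names is not reported here. Alternatives covered scaling, pseudocount, filter, sample weights, replicate block, left-out libraries and count models. Scripts were tested on simulated data.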

Additional observations from a re-analysis of the deposited data

How the results depend on the processing

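Of 26 alternatives, 12 left out 1 library each. The alternative without control thymus libraries 1 and 2 left only library 3 in that group, so its calls are not counted below. The number of the 8 genes called between genotypes in liver was 0, and 2 in the 2 groups alone, 2 with a weight for each library, 2 with DESeq2, and 0 to 0 on leaving out 1 library. For the other pathway genes in liver it was 0, and 1 with quantile normalization, 2 in the 2 groups alone and 2 with library weights (0 to 0 on leaving out 1 library). For them in thymus it was 0, and 1 each with a pseudocount of 10, TMM rescaling and quantile normalization, and 2 with DESeq2 (0 to 2 on leaving out 1 library: 1 without cKO thymus library 1 and 2 without control thymus library 3). Between tissues in control cells it was 2, and 0 in the 2 groups alone and 0 without the 2 shallow libraries (0 to 2 on leaving out 1 library, 0 without control liver library 2, 1 without control liver library 1 or 3). In cKO cells it was 1, and 2 in the 2 groups alone, 0 without the shallow libraries and 2 with DESeq2 (0 to 1 on leaving out 1 library, 0 without cKO liver library 1 or 3). Where fewer samples were fitted, fewer libraries estimated the spread; otherwise the cause was not tested. The number of all genes called in liver was 66, and 191 with quantile normalization, 292 in the 2 groups alone, 620 with library weights and 266 with DESeq2. In thymus it was 83, and 129 with a pseudocount of 10, 108 with TMM rescaling and 116 with quantile normalization. It was 27 there without cKO thymus library 1, 541 without control thymus library 3 and 581 with DESeq2. Between tissues in control cells it was 79, and 12 in the 2 groups alone and 18 without the shallow libraries. In cKO cells it was 29, and 57 in the 2 groups alone, 3 without the shallow libraries and 245 with DESeq2.

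Among genotype differences in liver, the 1 that changed sign was that of Entpd1, from -0.15 without cKO liver library 1 to 0.81 without cKO liver library 2 (0.41 with all). In the other contrasts, leaving out 1 library also took values across 0 for Adora2a (genotype in thymus, -0.68 to 0.75; tissue in control cells, -0.72 to 0.72), P2rx4 (tissue in cKO cells, -0.11 to 0.42) and Ada (genotype in thymus, -3.00 to 0.12). Median log2 fold changes of all genes moved with TMM rescaling to 0 in thymus from 0.24 as deposited, and to 0.04 between tissues in control cells from 0.28. Libraries of the same number in cKO and control liver had correlations of deviations of 0.072 to 0.08, and in thymus of -0.096 to 0.041. Between tissues these were -0.005 to 0.062 in cKO cells and 0.008 to 0.068 in control cells. In liver each library correlated best with its own number, in thymus none did, and between tissues some did. This is a hint from the data and not the design. With 3 libraries per group it cannot settle whether the numbers pair the samples. With a replicate block, 0 of the 8 genes were called in liver (limma adjusted p = 0.29 for Cd38, 0.14 for Nt5e and 0.92 for Art2b). With 1 read worth up to 6.662 adjusted counts, low values in the 2 shallow libraries rest on few reads.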

Other observations

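Markers of further cell types were summed in each library. Hepatocyte markers (4 of 6 in the table) summed to 719 to 1640 in cKO liver, 1270 to 1710 in control liver, 0 to 430 in cKO thymus and 0.0808 to 270 in control thymus; iNKT2 and iNKT17 genes (6 of 8) to 6600 to 7590, 3130 to 5150, 5660 to 9380 and 4060 to 7180 in the same order of groups; and immature thymocyte genes (6 of 8) to 5440 to 8290, 10100 to 13700, 2740 to 4160 and 2130 to 8440. In control liver the immature thymocyte sum was mainly Cd4 (6440 to 7920) and Themis (3690 to 5760). Cd8b1 reached 40.9 there, and Rag1, Dntt and Arpp21 were at 0 reads. Rag1 reached 486 in control thymus and 163 in cKO thymus. Mmp9, the 1 neutrophil gene of 7 in the table, had 0 to 1.16 in cKO liver, 3030 to 3580 in control liver, 0 to 1.43 in cKO thymus and 0.0213 to 2.55 in control thymus, and Epcam, the 1 thymic epithelial gene of 5, reached at most 129, in control liver.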
